A study of Mus musculus with 10 samples.

Results

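The 32 genes described here encode glucose and lactate transporters, the enzymes of glycolysis, and a set of transcripts that HIF1 is known to induce when oxygen falls. They were chosen by name for these roles, with earlier results of these data known, and were found among 54408 annotated genes by their symbols. 16 belong to glucose uptake, glycolysis and lactate export, and 16 to the hypoxia response. RNA came from P14 CD8 T cells, which carry a transgenic receptor for a viral peptide called gp33, sorted from subcutaneous B16-gp33 mouse melanomas. All donor T cells were of C57BL/6 background and carried NFAT5flox/flox alleles. The WT group had no Cre (CD4-Cre-/-), and the NFAT5 KO group carried CD4-Cre+/-, a Cre transgene under the Cd4 promoter, which acts in all T cells that pass the stage where CD4 is on. Cells of both groups had been activated in culture for 48 h and transferred into tumour-bearing mice 7 days before the sort. There were 5 libraries per genotype, and no label states that each came from a separate mouse, so the p-values describe variation among the libraries, which may be partly technical.

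Glycolysis splits glucose into pyruvate in the cytosol, and activated T cells are known to run it fast and to release much of the pyruvate as lactate. When oxygen is plentiful, prolyl hydroxylases of the EGLN family mark HIF1A for destruction through the VHL ubiquitin ligase. When oxygen is short, HIF1A escapes, pairs with ARNT and binds promoters of glycolytic enzymes, of the pyruvate dehydrogenase kinase PDK1, of mitophagy receptors and of its own hydroxylases. HIF1A is controlled mostly as a protein, which these data do not measure. NFAT5, the factor targeted in the KO, is known for its part in the response to osmotic stress.

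Each library held 22444310 to 32001285 estimated counts. Levels are given as CPM, counts scaled so that libraries can be compared, and, where genes are compared with each other, as TPM, which also corrects for transcript length. Sums of 8 CD8 T cell markers were 8493 to 9575 CPM in WT and 9353 to 9899 CPM in KO libraries, so the sorted cells carried the RNA of their labelled type in both groups. Counts per gene do not separate the floxed part of Nfat5, so they do not test the genotype. In bulk RNA, fewer cells of one type and less RNA per cell cannot be told apart. Library names start with 678 (2 WT, 3 KO) or 679 (3 WT, 2 KO), a prefix the labels leave unexplained. Values are listed below in the order 678_2, 678_4, 679_3, 679_4 and 679_5 for WT and 678_3, 678_5, 678_6, 679_2 and 679_6 for KO.

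Of the 32 genes, 2 passed the test between genotypes. Pfkfb3, whose product makes the activator of phosphofructokinase, rose by 0.85 on the log2 scale, and Pdk1, whose product inhibits pyruvate dehydrogenase, fell by 0.42. All 32 genes passed the filter on low counts and were tested by edgeR among 13081 genes. The call was made at a Benjamini-Hochberg adjusted p under 0.05 over all genes. By that rule 1 of the 32 was higher and 1 lower in KO, and 30 did not pass. Over all genes tested, 9.01% were called, 3.38% as higher and 5.63% as lower, so the members were called no more often than genes at large. Pdk1 and Pfkfb3 were also the 2 members whose genotypes did not overlap in CPM, a separation found in 10.3% of all genes. The median log2 fold change was -0.06 for the 16 transport and glycolysis genes and 0.17 for the 16 hypoxia genes, beside 0.02 for all genes tested.

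**Figure D1:**
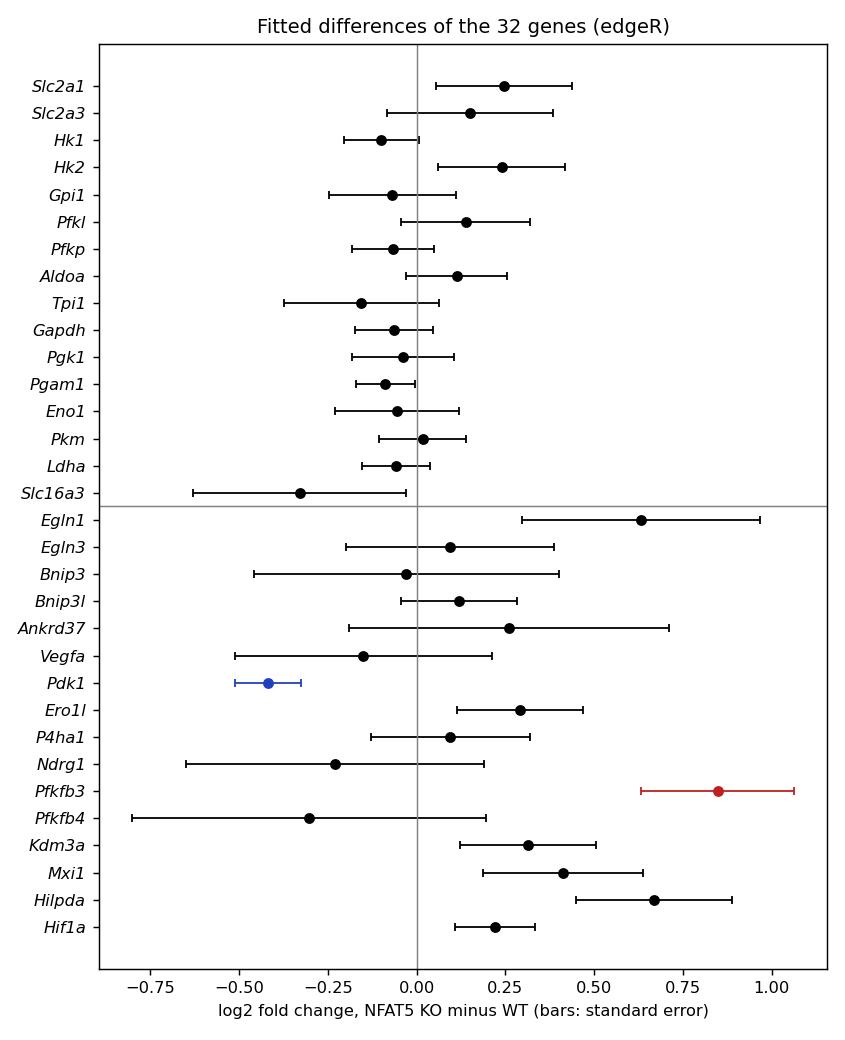
Fitted log2 fold change (NFAT5 KO minus WT, horizontal axis) of the 32 genes with its standard error, transporters and glycolytic enzymes above the line and hypoxia genes below it. Pfkfb3 (red, 0.85) was called higher and Pdk1 (blue, -0.42) lower, while the other 30, in black, did not pass.

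KO library 678_5 was the highest of the 5 KO libraries for 30 of the 32 genes (93.8%), where the same was true of 27.3% of all genes tested. It exceeded all other 9 libraries, WT included, for 29 of the 32 (90.6%), against 18.5% of all genes. Its median level over the members was 1.77-fold the mean of the other 4 KO libraries, and over all genes this ratio was 0.979. The 2 exceptions within KO were Pdk1 and Pfkfb4, in which 678_5 was the lowest KO library. The third gene in which it was not the highest of all 10 was Vegfa.

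The members that stood out most in this library were hypoxia genes of low to middling level. Bnip3, a mitophagy receptor, measured 156 CPM in 678_5, 4.09-fold the mean of the other KO libraries. The same ratio was 3.79 for Ndrg1, 3.73 for Ankrd37, 2.66 for Egln3 and 2.65 for Egln1. Among glycolysis genes it was largest for the lactate exporter Slc16a3, at 2.53, followed by Tpi1, at 2.12, and the glucose transporter Slc2a1, at 1.998. It was small for Ldha (1.23), Pgam1 (1.24) and Hif1a itself (1.25). All 16 transport and glycolysis genes had their highest level of the 10 libraries in 678_5, so the difference spanned the pathway from uptake to export.

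At the other end, KO library 679_2 was the lowest of all 10 libraries for 20 of the 32 genes (62.5%), against 8.8% of all genes tested. Its median level over the members was 0.672 of the mean of the other KO libraries. In it Bnip3 stood at 30.8% of the WT mean, Ankrd37 at 35.8%, Ndrg1 at 36.5% and Slc16a3 at 39.01%. For these genes KO libraries therefore lay on both sides of the WT libraries. WT libraries lay closer together than KO libraries for most members. Some members still varied in WT, such as Ndrg1, at 27.2 to 62.6 CPM, and Slc2a3, at 202 to 412 CPM.

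**Figure D2:**
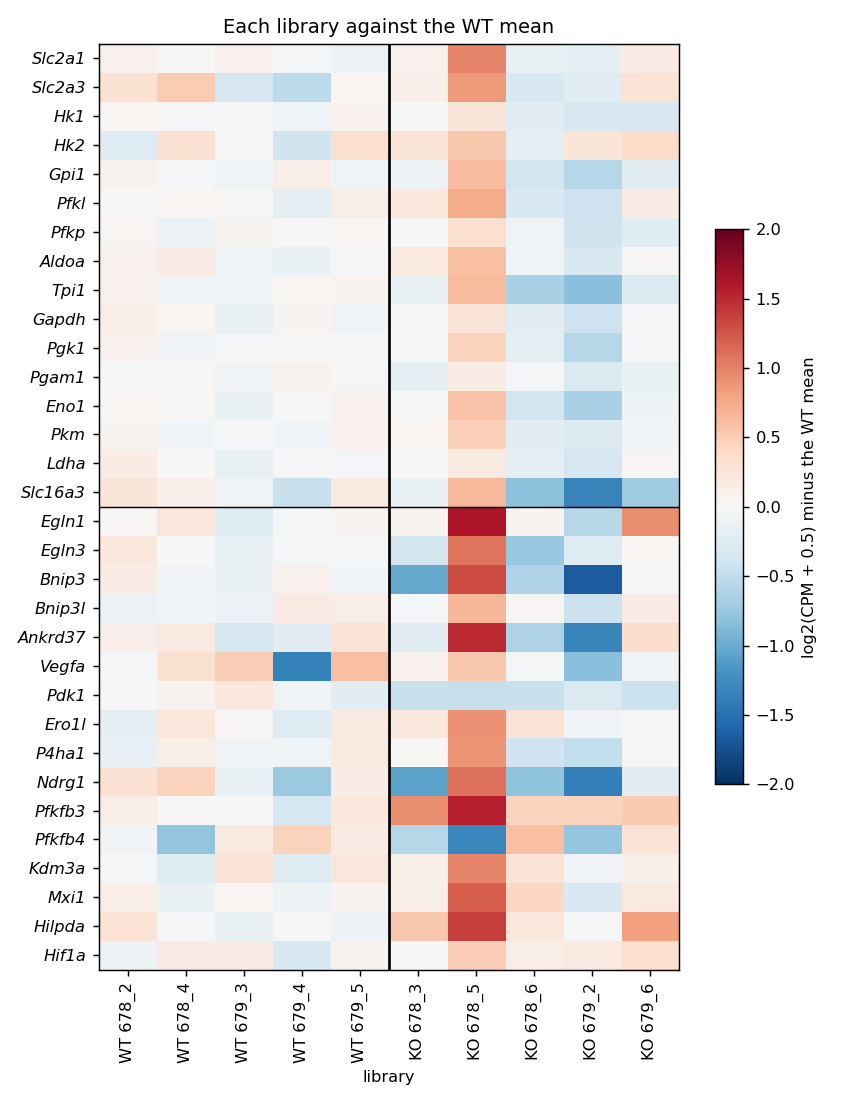
Difference of log2(CPM + 0.5) from the WT mean for each of the 32 genes (rows) in each of the 10 libraries (columns, WT left of the vertical line), red for higher and blue for lower. The column of KO 678_5 is red for 30 of the 32 genes, and that of KO 679_2 is mostly blue.

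The spread between KO libraries was accordingly wider than between WT libraries. The median coefficient of variation, the SD as a percentage of the mean, was 9.73% in WT and 33.65% in KO over the 32 genes. It was larger in KO for 29 of them (90.6%), the exceptions being Hk2, Vegfa and Pdk1. Over all genes tested the medians were 21.3% and 21.8%, and KO was the wider group in 54.0%. A larger coefficient of variation in KO was not particular to the members. In a list of 28 cell cycle genes, KO was wider for 26 (92.9%), with medians of 26.2% in WT and 41.82% in KO. All 28 of these were called lower in KO by edgeR, beside 5.63% of all genes tested. Their coefficients are therefore taken over lower KO means, with sums of 1252 to 2216 CPM against 3880 to 5938 CPM in WT. In the related pathway lists described below the share wider in KO ran from 41.7% (HIF partners and regulators) to 71.4% (pentose phosphate genes). Without KO 678_5 the members' KO median was 16.92%, with 25 of 32 (78.1%) wider in KO, and the all-gene values were 18.39% and 43.8%. Leaving out 679_2 as well gave 11.62%, with 24 of 32 wider, beside 17.04% and 40.1% for all genes. For the cell cycle list the shares wider in KO were 82.1% without 678_5 and 78.6% without both. These are descriptions with no test, and both libraries were left out after their values were seen.

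**Figure D3:**
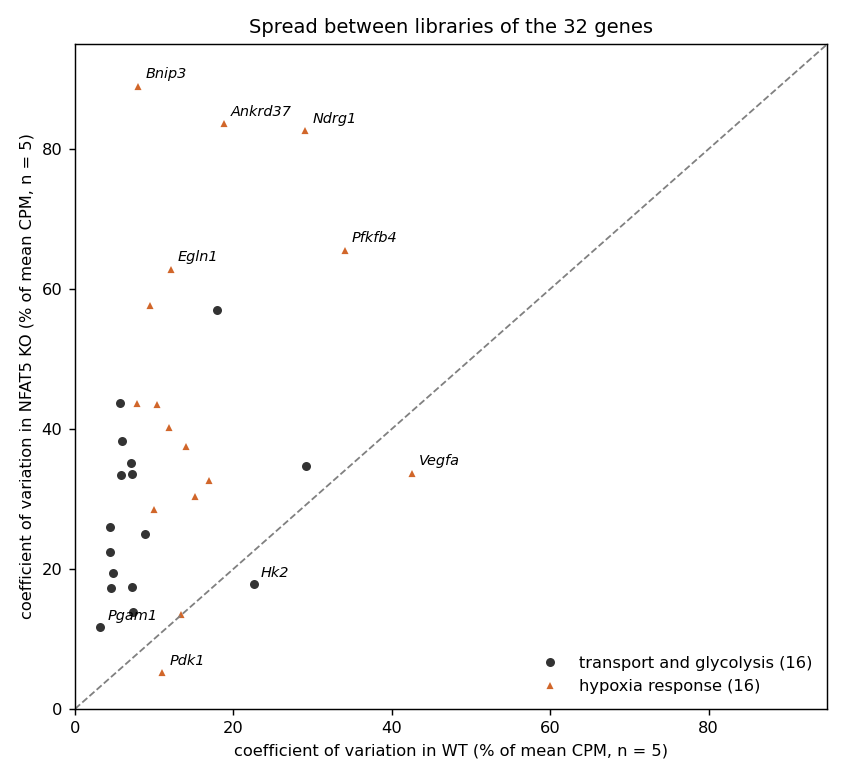
Coefficient of variation of CPM over the 5 KO libraries (vertical) against that over the 5 WT libraries (horizontal) for each of the 32 genes, with a dashed line of equality. 29 points lie above the line, with Bnip3, Ankrd37 and Ndrg1 highest, and Pdk1, Hk2 and Vegfa lie below it.

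Lists of genes outside the 32 lay on both sides of the 18.5% of all genes that were highest of the 10 libraries in 678_5. That share was 42.9% for further hypoxia targets (12 of 28 tested) and 33.3% for HIF partners and regulators (4 of 12). The highest level was also in 678_5 for 3 of 15 other glycolysis genes, 0 of 12 genes of pyruvate entry into mitochondria, 0 of 7 pentose phosphate genes and 0 of 28 cell cycle genes. The summed cell cycle genes were lowest in this library, at 1252 CPM, where the other KO libraries held 1534 to 2216 CPM and the WT libraries 3880 to 5938 CPM. By the mean log2 CPM of the same genes KO 679_2 was lowest, at 3.84, and 678_5 stood at 3.94. Mitochondrially encoded RNA made up 0.47% of the counts of 678_5, the lowest of the 10, and 0.63% to 1.364% elsewhere. Summed macrophage markers were 169 CPM in it, within the 151 to 242 CPM of the KO libraries, and Ctss made up 80.5 CPM of them. Single markers differed from the sum. In 678_5 Lyz2 stood at 0.549 CPM, the lowest of the 10, and C1qa, C1qb and C1qc at 0. H2-Ab1, at 26.7 CPM, was the highest of the KO libraries. Summed melanoma markers were 3.70 CPM in 678_5, within the 2.60 to 17.2 CPM of the KO libraries. Of the 9 melanoma markers, 2 (Sox10 and Slc45a2) were at 0 in all 10 libraries, and the others were detected in at least 1 library. Pmel lay at 0.183 to 2.196 CPM, and Gpnmb reached 24.46 CPM, in WT 678_2. The part of any of these in the members' levels was not tested.

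Length-corrected levels differed widely among the enzymes. Gapdh, which oxidises glyceraldehyde phosphate, was the most abundant member at 5276 ± 189.6 TPM in WT (SD, n = 5), followed by the lactate dehydrogenase Ldha at 2918 ± 154 TPM and the enolase Eno1 at 2642 ± 117 TPM. Pyruvate kinase Pkm (1712 ± 74.8 TPM) and the aldolase Aldoa (1629.6 ± 160.4 TPM) did not differ beyond their spread and came next, then the triose phosphate isomerase Tpi1 (1015 ± 45.3 TPM). Gpi1, of the second step, lay at 599 TPM, above the later Pgk1 and Pgam1 at 459.6 and 436 TPM. Pfkp, the most abundant phosphofructokinase gene, stood at 323 TPM, and the entry genes Slc2a1, Slc2a3, Hk1 and Pfkl lay between 77.7 and 134 TPM. Among hypoxia genes Bnip3l was highest, at 318 TPM, and Hif1a stood at 188 TPM. Vegfa (6.79 ± 3.38 TPM), the hexokinase Hk2 (6.63 ± 1.18 TPM) and Pfkfb4 (1.30 ± 0.440 TPM) were the 3 lowest members.

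**Figure D4:**
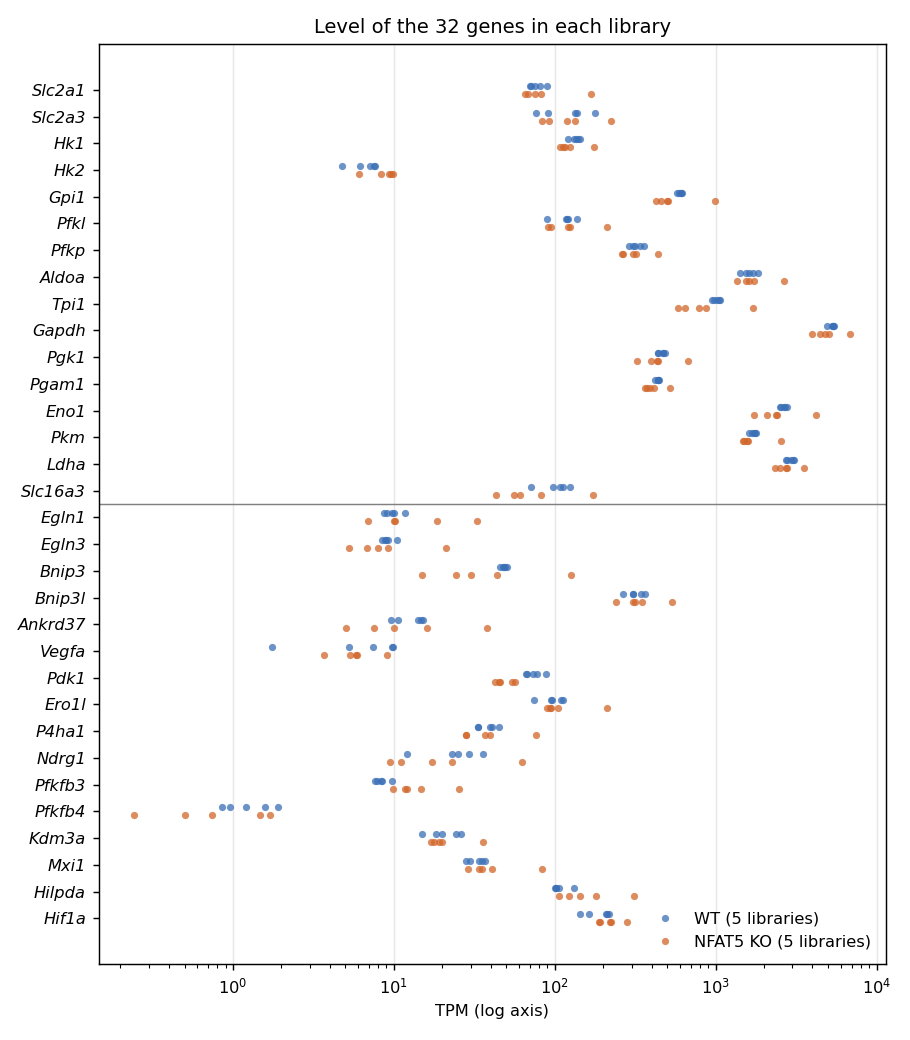
TPM (log axis) of the 32 genes in each of the 5 WT (blue) and 5 NFAT5 KO (orange) libraries, with transporters and glycolytic enzymes above the line and hypoxia genes below. WT points cluster tightly for most genes, and 1 orange point, library 678_5, lies to the right for nearly all of them.

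Glucose enters these cells through the transporters SLC2A1 (GLUT1) and SLC2A3 (GLUT3). Slc2a1 measured 154, 145, 155, 143 and 134 CPM in the WT libraries and 156, 289, 132, 128 and 163 CPM in the KO libraries. KO library 678_5 was the highest of all 10. KO libraries 678_3 and 679_6 also lay above the WT range and 678_6 and 679_2 below it, all closer to its ends than 678_5. The log2 fold change was 0.25 (adjusted p = 0.481, SE 0.19) by edgeR and -0.03 without 678_5. Slc2a3 ranged over 202 to 412 CPM in WT and 234 to 521 CPM in KO, and did not pass either, at 0.15 (adjusted p = 0.759, SE 0.23) by edgeR. Slc2a1 made up 39.9% ± 8.66 of the TPM of this pair in WT and 41.2% ± 2.87 in KO (SD, n = 5 each), so neither transporter stood far above the other.

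The hexokinase and phosphofructokinase steps each had 1 dominant isozyme by RNA level. Hk1, the hexokinase of most tissues, held 95.3% ± 0.566 in WT and 93.5% ± 1.42 in KO of the summed Hk1 and Hk2 TPM, and its ranges of 94.7% to 96.2% and 91.8% to 95.01% overlapped. Pfkp, the platelet-type phosphofructokinase, held 72.8% ± 2.75 in WT and 71.3% ± 4.39 in KO of the TPM of the 3 phosphofructokinase genes, with Pfkl most of the rest. In CPM Hk1 ranged over 323 to 365 in WT and 279.6 to 409.6 in KO, and Hk2, the inducible form, over 22.8 to 37.9 and 26.3 to 43.9. Neither passed, with log2 fold changes of -0.10 and 0.24. Gpi1, Pfkl and Pfkp gave -0.07, 0.14 and -0.07, with adjusted p of 0.866, 0.703 and 0.786 by edgeR.

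Aldoa, which cleaves fructose bisphosphate, measured 1826, 1921, 1615, 1559.5 and 1666 CPM in WT and 1966, 2597, 1607, 1386 and 1733 CPM in KO, and the groups overlapped. Its log2 fold change was 0.11 (adjusted p = 0.686, SE 0.14) by edgeR. Tpi1, which interconverts the triose phosphates, measured 1197, 1053, 1063, 1151 and 1163 CPM in WT and 1029, 1748, 720.0, 631 and 925 CPM in KO. Here 4 of the 5 KO libraries lay below every WT library and 678_5 lay above them all. Tpi1 gave -0.16 (adjusted p = 0.724, SE 0.22) in edgeR over all libraries, and -0.46 (adjusted p = 0.0505) without 678_5, still short of the threshold.

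Gapdh (ENSMUSG00000057666, GRCm38 chromosome 6, 125161715 to 125166467) measured 3962, 3719, 3288, 3782 and 3483 CPM in WT and 3708, 4328, 3119, 2734 and 3557 CPM in KO, overlapping groups with a log2 fold change of -0.06 (adjusted p = 0.783, SE 0.11) by edgeR. Its count is uncertain in size. A processed pseudogene, Gm12671 (GRCm38 chromosome 4, 91851668 to 91852669), is 100% identical to 70.6% of the Gapdh transcript over 1002 bases, and Salmon gave it 33.3% to 34.4% of the counts of the pair in WT and 31.9% to 34.7% in KO. With such copies added to the gene, the log2 fold change of Gapdh was -0.09 (edgeR adjusted p = 0.688). Pgk1, the phosphoglycerate kinase, likewise shares 100% identity with the copies Gm5537 and Pgk1-rs7 over 68.6% and 68.8% of its transcript, and of the counts of gene plus copy they took on average 6.74% and 2.98% in WT and 6.43% and 2.52% in KO. Pgk1 and Pgam1 gave log2 fold changes of -0.04 and -0.09, and neither passed.

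Eno1, the main enolase, measured 3498, 3447, 3081, 3360.2 and 3608 CPM in WT and 3358, 5044, 2630.5, 2173 and 3150.2 CPM in KO. KO libraries 678_3 and 679_6 lay within the WT range, 678_6 and 679_2 below it and 678_5 above it. Its log2 fold change was -0.06 (adjusted p = 0.892, SE 0.18) by edgeR. Ldha, which turns pyruvate into lactate, measured 4064, 3691, 3309, 3674 and 3599 CPM in WT and 3629.8, 4151, 3210.0, 2894 and 3730.1 CPM in KO. The groups overlapped, with a log2 fold change of -0.06 (adjusted p = 0.771, SE 0.10) by edgeR. Ldha supplied 99.7% of the summed Ldha and Ldhb TPM in WT and 99.7% in KO.

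Slc16a3 encodes MCT4, which exports lactate. It measured 145, 131, 115, 90.1 and 139.6 CPM in WT and 111, 191, 68.98, 48.5 and 75.1 CPM in KO. 3 KO libraries lay below every WT library, 1 within their range and 678_5 above it, with -0.33 (adjusted p = 0.557, SE 0.30) by edgeR. Without 678_5 the log2 fold change was -0.73 (adjusted p = 0.0606). Of the TPM of Slc16a1 and Slc16a3 together, Slc16a3 held 65.5% to 74.6% in WT and 46.4% to 77.6% in KO, highest in 678_5.

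Pyruvate kinase is made in the M1 or the M2 form, which differ by 1 of 2 mutually exclusive exons, exon 9 of 11 in each transcript. M2, the form that growing cells are known to favour, uses the downstream exon. Both are 167 bases long and agree at 103 positions (61.7%). They are shown, from the GENCODE M21 transcripts on the plus strand of GRCm38, since the isoform share below rests on them, with capitals at the positions where the 2 exons differ.
Pkm M1 exon, chr9:59675029-59675195, transcript Pkm-202: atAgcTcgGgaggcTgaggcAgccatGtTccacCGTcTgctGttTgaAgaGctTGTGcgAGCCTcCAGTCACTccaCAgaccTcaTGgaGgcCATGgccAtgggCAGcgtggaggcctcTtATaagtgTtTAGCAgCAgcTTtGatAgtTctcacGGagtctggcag
Pkm M2 exon, chr9:59675568-59675734, transcript Pkm-201: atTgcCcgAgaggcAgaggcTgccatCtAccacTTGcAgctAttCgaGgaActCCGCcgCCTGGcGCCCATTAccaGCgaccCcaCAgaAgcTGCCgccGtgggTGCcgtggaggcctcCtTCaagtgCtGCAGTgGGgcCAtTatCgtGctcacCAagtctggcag

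Pkm as a gene measured 3105, 2879.7, 2907, 2888 and 3149.7 CPM in WT and 3065, 4154, 2565, 2465 and 2862 CPM in KO, with a log2 fold change of 0.02 (adjusted p = 0.953, SE 0.12) by edgeR. Its M2 transcript took 90.9, 89.7, 90.03, 90.2 and 89.2% of all Pkm counts in the WT libraries. In the KO libraries it took 90.2, 89.3, 89.6, 89.7 and 90.5%. The share of the form known from growing cells was 90.01% ± 0.645 in WT and 89.9% ± 0.472 in KO (SD, n = 5 each). The difference of -0.127 percentage points was smaller than either SD (two-sided exact permutation test, p = 0.738). In library 678_5, where Pkm was highest, the share was 89.3%, inside the WT range. By length-corrected level the share was lower, at 79.6% ± 2.25 of all Pkm TPM in WT (76.3% to 82.4%) and 80.1% ± 0.872 in KO. Over the counts of the M1 and M2 transcripts alone the share was 94.5% ± 0.539 in WT and 94.2% ± 0.493 in KO. By this measure 678_5 had the lowest share of all libraries, at 93.50%, below the WT range of 94.05% to 95.25%.

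Hif1a (ENSMUSG00000021109, GRCm38 chromosome 12, 73901375 to 73947530), the oxygen-controlled subunit of the HIF1 factor, measured 642, 769, 772, 557 and 723 CPM in WT and 681, 963, 752, 776 and 864 CPM in KO. 3 KO libraries lay above all WT libraries and 2 among them, with 0.22 (adjusted p = 0.267, SE 0.11) by edgeR. Of its partners and regulators, 0 of the 12 tested were called by edgeR, with 3 at an unadjusted p under 0.05. Arnt, the partner, gave 0.06, the ligase gene Vhl 0.01, the asparaginyl hydroxylase gene Hif1an 0.13 and the third prolyl hydroxylase gene Egln2 0.08. The related factor Epas1 was barely detected, at 0.700 ± 0.885 CPM in WT and 1.82 ± 0.545 CPM in KO (SD, n = 5 each), with 1.38 (adjusted p = 0.471, SE 1.05) by edgeR.

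The hydroxylase genes Egln1 and Egln3, which HIF1 is known to induce as a brake on itself, were both highest in 678_5. Egln1 measured 25.5, 29.5, 21.02, 24.5 and 26.1 CPM in WT and 26.5, 78.1, 26.1, 16.9 and 48.6 CPM in KO. 2 KO libraries, 678_5 and 679_6, lay above all WT libraries, 1 lay below them and 2 lay among them. The log2 fold change was 0.63 (adjusted p = 0.286, SE 0.34) by edgeR and 0.21 without 678_5. Egln3 ranged over 18.9 to 24.2 CPM in WT and 12.1 to 44.3 CPM in KO, with 678_6 lowest and 679_2, at 17.3 CPM, in the middle of the KO libraries. Its log2 fold change of 0.09 was -0.34 without 678_5. The Egln1 share of the TPM of the 3 hydroxylase genes was 17.1% to 22.8% in WT and 12.6% to 37.1% in KO.

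Bnip3 and Bnip3l encode receptors that mark mitochondria for removal. Bnip3 (ENSMUSG00000078566, GRCm38 chromosome 7, 138890836 to 138909519) measured 69.5, 60.3, 57.4, 66.7 and 60.6 CPM in WT and 30.6, 156, 40.7, 19.4 and 61.7 CPM in KO. WT libraries differed little, while 3 KO libraries lay below all of them and 678_5 far above, so that the means nearly met (62.9 ± 4.99 and 61.6 ± 54.9 CPM, SD, n = 5 each). The log2 fold change was -0.03 (adjusted p = 0.98, SE 0.43) by edgeR and -0.74 (adjusted p = 0.116) without 678_5. Bnip3l ranged over 155 to 189 CPM in WT and 125 to 267 CPM in KO, with 0.12 (adjusted p = 0.716, SE 0.16) by edgeR. A noncoding gene of 93147 bases, AC160336.1, contains a Bnip3-like copy and held 13169 estimated counts per library on average, against 1741 for Bnip3, so the sum of both is not a Bnip3 level. That sum was called higher by edgeR (0.56, adjusted p = 0.00468).

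Pdk1 (ENSMUSG00000006494, GRCm38 chromosome 2, 71873224 to 71903858) encodes a kinase that switches off pyruvate dehydrogenase. It measured 105, 110.2, 121, 100.4 and 90.1 CPM in WT and 77.2, 76.1, 77.2, 86.1 and 77.6 CPM in KO. Every KO library lay below every WT library, and the 5 KO values lay close together. Pdk1 fell by 0.42 on the log2 scale (SE 0.09, edgeR adjusted p = 0.0147), from 105 ± 11.6 to 78.8 ± 4.12 CPM (SD, n = 5 each). The call held in all 10 fits that left out 1 library, with an adjusted p of at most 0.0338. It was the 1 hypoxia member with a smaller spread in KO than in WT besides Vegfa, and 678_5 did not stand out in it. With the mean of the macrophage markers as a covariate the log2 fold change was -0.47 (adjusted p = 0.364), in a fit that called 6 of all genes. Summed macrophage markers were 204 to 342 CPM in WT and 151 to 242 CPM in KO.

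Of the 275 annotated transcripts of the 32 genes, 179 were tested and 0 were called by edgeR, where 1.64% of all transcripts tested were. The nearest was Pdk1-208, annotated as a processed transcript, which held 50.8% of the Pdk1 counts. It lacks exons 2 and 7 of the 11 exons of the coding Pdk1-201, and its last exon ends 1872 bases earlier. Pdk1-208 measured 50.8, 62.2, 70.3, 62.7 and 43.7 CPM in WT and 41.3, 31.04, 36.2, 40.5 and 37.8 CPM in KO, and every KO value lay below every WT value. Its log2 fold change was -0.63 (adjusted p = 0.0534, SE 0.14) by edgeR. The coding Pdk1-201 measured 42.8, 30.3, 32.7, 21.3 and 28.2 CPM in WT and 21.5, 35.8, 31.2, 34.00 and 31.3 CPM in KO, overlapping throughout, with -0.01 (adjusted p = 0.992, SE 0.19) by edgeR. A test of the difference between these transcripts was not run, and Salmon divides reads of shared exons between them by a model.

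Pfkfb3 (ENSMUSG00000026773, GRCm38 chromosome 2, 11471433 to 11554077) encodes a kinase and phosphatase that makes fructose 2,6-bisphosphate. It measured 29.7, 27.3, 27.4, 21.3 and 31.5 CPM in WT and 52.2, 80.7, 37.2, 37.4 and 39.5 CPM in KO. All KO libraries lay above all WT libraries, 678_5 highest. Pfkfb3 rose by 0.85 on the log2 scale (SE 0.22, edgeR adjusted p = 0.0282), from 27.4 ± 3.84 to 49.4 ± 18.5 CPM (SD, n = 5 each), and by 0.58 (adjusted p = 0.0378) without 678_5. The call held in 5 of 10 fits that left out 1 library and was lost without WT 678_2, WT 678_4, WT 679_3, WT 679_4 or KO 678_3, with an adjusted p of at most 0.0672. It was also lost with the label prefix as a block (0.76, adjusted p = 0.0532) and with the macrophage (0.69, adjusted p = 0.697) or melanoma markers (0.80, adjusted p = 0.11) as a covariate. Summed melanoma markers were 5.93 to 28.7 CPM in WT and 2.60 to 17.2 CPM in KO. Gpnmb alone made up 24.46 CPM of the highest WT sum, in 678_2, and 13.4 CPM of the highest KO sum, in 679_6. Pmel, Mlana, Tyr, Tyrp1 and Dct did not exceed 2.196 CPM in any library. Among the PFKFB genes Pfkfb3 held 57.99% to 79.98% of the TPM in WT and 75.8% to 98.96% in KO. Pfkfb4 lay at 1.23 to 3.61 CPM in WT and 0.696 to 3.99 CPM in KO, with -0.30 (adjusted p = 0.771, SE 0.50) by edgeR.

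**Figure D5:**
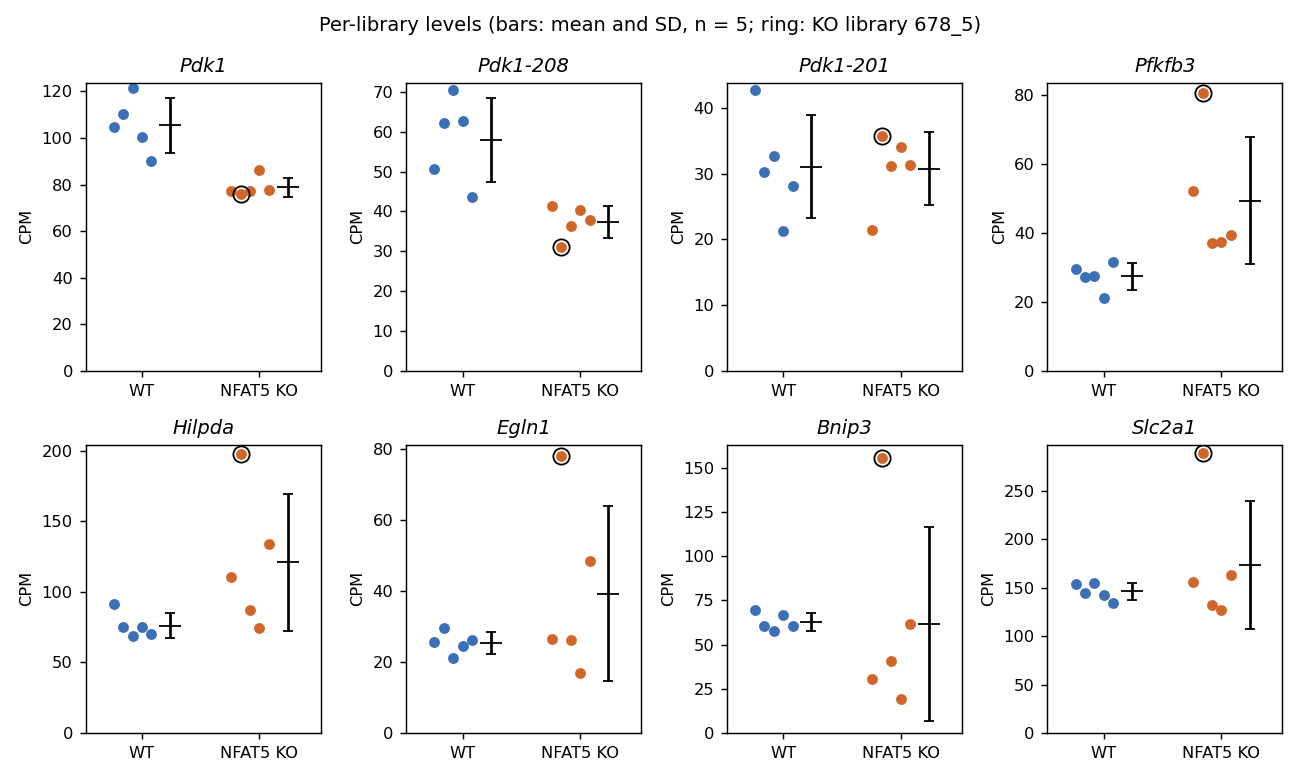
CPM in each library for 6 genes and the 2 main Pdk1 transcripts (WT blue, NFAT5 KO orange; bars are mean and SD, n = 5 each), with KO library 678_5 ringed. Genotypes separate for Pdk1, Pdk1-208 and Pfkfb3, while for Hilpda, Egln1, Bnip3 and Slc2a1 the ringed library lies far above the rest.

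Hilpda, which inhibits breakdown of stored fat in hypoxic cells, came closest of the uncalled members. It measured 91.4, 74.8, 68.98, 74.98 and 70.2 CPM in WT and 111, 198, 87.3, 74.6 and 134 CPM in KO. 3 KO libraries lay above all WT libraries and 2 among them, with 0.67 (adjusted p = 0.0806, SE 0.22) by edgeR and 0.40 without 678_5. It passed under the DESeq2 Wald test (0.66, adjusted p = 0.024) and without KO 679_2 (0.78, edgeR adjusted p = 0.0381). At an unadjusted p under 0.05 there were 3 members, Pdk1, Pfkfb3 and Hilpda, and 3041 of all genes.

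The other hypoxia genes overlapped between genotypes and did not pass. Mxi1, a MYC antagonist, ranged over 56.5 to 67.7 CPM in WT and 49.7 to 143 CPM in KO, with 0.41 (adjusted p = 0.299, SE 0.23) by edgeR and 0.10 without 678_5. Kdm3a, a histone demethylase, and Ero1l, an oxidase of protein folding, gave log2 fold changes of 0.31 and 0.29, and P4ha1, a collagen prolyl hydroxylase subunit, 0.10. Ndrg1 measured 56.8, 62.6, 41.6, 27.2 and 50.9 CPM in WT and 21.6, 99.1, 26.1, 17.5 and 39.4 CPM in KO. 3 KO libraries lay below all WT libraries, 1 among them and 678_5 above, with -0.23 (adjusted p = 0.798, SE 0.42) by edgeR and -0.89 without 678_5. Ankrd37, an ankyrin-repeat gene, measured 8.54, 8.99, 6.21, 6.71 and 9.72 CPM in WT and 6.76, 23.2, 5.02, 2.88 and 10.2 CPM in KO, again with 678_5 and 679_2 at the ends. Its log2 fold change was 0.26 and -0.38 without 678_5. Vegfa, the vessel growth factor, was low, at 3.37 to 14.5 CPM in WT and 5.03 to 13.9 CPM in KO. For Ndrg1, Ankrd37 and Bnip3 alike, the direction or size of the difference thus turned on 1 library.

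HIF1 is known to bind the core letters ACGTG or GCGTG. Both were searched on both strands in RefSeq promoter windows of GRCm38.p6, 250 bases before to 50 after a start, of which 29 of the 32 members had one (Ero1l under its newer name Ero1a). Slc2a3, Bnip3l and Ndrg1 had no entry. In the window nearest the annotated gene start, 22 of 29 members (75.9%) held at least 1 match, against 43.8% of all 32851 windows, and 15 (51.7%) held ACGTG, against 19.6%. Many of these genes were listed because HIF1 is known to induce them, and a match describes letters, not a site. Stretches around the matches before the start are shown for the 2 called genes and for 2 genes that were high in library 678_5, with the matches in capitals, each written on the strand of its gene.
Pdk1, chr2:71873121-71873175, plus strand: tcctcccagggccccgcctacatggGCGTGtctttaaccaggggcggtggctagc
Pfkfb3, chr2:11553975-11553999, minus strand: ccgcgccgtgACGTGccaagctgtg
Bnip3, chr7:138909512-138909648, minus strand: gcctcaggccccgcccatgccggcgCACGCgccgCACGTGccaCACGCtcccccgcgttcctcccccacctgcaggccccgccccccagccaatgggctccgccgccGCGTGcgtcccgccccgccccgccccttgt
Egln1, chr8:124949300-124949405, minus strand: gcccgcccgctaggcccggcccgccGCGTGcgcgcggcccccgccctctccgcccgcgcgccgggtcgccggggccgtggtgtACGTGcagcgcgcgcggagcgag
The match of Pdk1 begins 78 bases and that of Pfkfb3 60 bases before the RefSeq start. Bnip3 held 5 matches, of which CACGTG counts on both strands, and Egln1 held 2. The Pfkfb3 stretch lies inside the first exon that GENCODE annotates for the gene, and 25 bases of the Egln1 stretch and 8 of the Bnip3 stretch do so too.

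The label prefix divides the libraries into a set of 5 and another of 5, and the genotype difference was fitted within each. The median log2 fold change of the transport and glycolysis genes was 0.08 in prefix 678 and -0.19 in prefix 679, and that of the hypoxia genes 0.32 and -0.13. KO 678_5 belongs to the first and KO 679_2 to the second. Pdk1 gave -0.49 and -0.35, and Pfkfb3 0.99 and 0.52. No member was called within either prefix, where edgeR called 0 of all genes for prefix 678 and 71 higher and 254 lower for prefix 679. The difference between prefixes was tested as an interaction and called for 0 genes, with 377 genes and 1 member, Pfkp, at an unadjusted edgeR p under 0.05.

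Related genes that are not among the 32 were taken from lists of the same pathways. Of 15 tested further glycolysis genes 1 was called. Eno3, the muscle-type enolase, measured 130.1, 57.8, 99.5, 118 and 75.6 CPM in WT and 37.9, 10.1, 29.2, 30.3 and 23.9 CPM in KO, without overlap, and fell by 1.87 on the log2 scale (SE 0.31, edgeR adjusted p = 0.00268). It was a small part of enolase RNA, so that Eno1 held 96.3% ± 1.12 of the enolase TPM in WT and 98.8% ± 0.579 in KO. Of 12 genes of pyruvate entry 1 was called, the pyruvate carboxylase gene Pcx, which fell by 2.99 (SE 0.86, edgeR adjusted p = 0.0483) from 7.09 ± 4.12 to 0.886 ± 0.889 CPM, a call kept in 2 of 10 fits that left out 1 library. Of 7 pentose phosphate genes 0 were called by edgeR, with 1 at an unadjusted p under 0.05. Of 28 further hypoxia targets 1 was called, the chemokine receptor gene Cxcr4, which rose by 1.09 (SE 0.23, edgeR adjusted p = 0.012) from 9.64 ± 2.97 to 20.4 ± 4.61 CPM. With the macrophage markers as a covariate all 3 kept their direction and lost their call, at -1.36 for Eno3, -2.98 for Pcx and 0.82 for Cxcr4 (edgeR adjusted p = 0.489, 0.536 and 0.523). Pcx also lost its call with the label prefix as a block (edgeR adjusted p = 0.0647) and with the melanoma markers as a covariate (edgeR adjusted p = 0.11). Pdk1 held 55.9% ± 2.25 in WT and 50.1% ± 5.27 in KO of the TPM of the 4 PDK genes.

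The 30 uncalled members had standard errors of 0.08 to 0.50 on the log2 scale. On simulated data for this comparison, 12681 genes passed the filter on low counts. Among these the fit recovered 57 of 96 genes changed by 1 on the log2 scale and 75 of 89 changed by 2, with 3 false calls. Each simulated gene had the same spread in both genotypes and was drawn independently of the others. The members spread more widely in KO and shared an outlying library, so these rates do not carry over to them. Without KO 678_5 the median log2 fold change was -0.17 for the transport and glycolysis genes and -0.09 for the hypoxia genes, against -0.06 and 0.17 with it, so the sign of the hypoxia median depended on that library. Pdk1 and Pfkfb3 were the 2 members called with and without it.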

How the data were processed

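The authors deposited 1 Salmon table per library that gives each of 140919 transcripts an estimated count and a TPM, per the file headers. TPM, as deposited, is scaled by length and library total, and estimated counts are not normalized. Salmon was version 0.14.1, with builds GRCm38.p6 and mm10, per the submitters' processing notes. The annotation release, strand setting and trimming were not given in the sources used here. Reads that fit several transcripts are divided by Salmon's model, which can move counts between a gene and its copies.

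Transcripts were matched to GENCODE M21 (99.38%), and their counts were added up by gene, then rounded. Genes were filtered with filterByExpr, scaled with TMM factors and compared by edgeR 4.0.16 with its quasi-likelihood test (R 4.3.3, no covariate, all 10 libraries). P-values were adjusted by Benjamini-Hochberg over all genes, or over all 38339 transcripts tested. The SE is the size of the log2 fold change over the root of F, and the biological coefficient of variation was 35.7%. Copies were found with blastn 2.17.0 (at least 95% identity over at least 50% of the transcript). The fit was tested on simulated data.

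All 32 members were named, and other lists were used for those past the threshold plus Epas1, Arnt, Vhl, Hif1an and Egln2. Pdk3 was added after seeing the data. Members and lists were chosen with earlier results of these data known. Alternatives included DESeq2 1.42.0 size factors and Wald test, limma 3.58.1 voom weights, covariates, filters and leaving out each library. Restricting copies to those themselves at least 50% alike, leaving out KO 678_5 and 679_2 for the spread, and the share over M1 and M2 alone were chosen after seeing the data.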

Additional observations from a re-analysis of the deposited data

Results flagged for a closer look

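In 64 groups of 5 libraries (32 genes in each genotype), the gap of the highest or lowest library to its neighbour was above 0.71 of the group's range 8 times, where chance alone flags about 1 group in 20. In 6 of the 8 the library was KO 678_5, which was the highest. It measured 289 CPM for Slc2a1, 44.3 CPM for Egln3, 230.0 CPM for Ero1l, 186 CPM for P4ha1, 99.1 CPM for Ndrg1 and 128 CPM for Kdm3a, with gaps of 0.712 to 0.779 of the range. The genes of one library are not independent, so these 6 are not separate events. KO 679_2 was the highest KO library for Pdk1, at 86.1 CPM, with a gap of 0.85 of a narrow range of 76.1 to 86.1 CPM. WT 678_2 was the highest WT library for Hilpda, at 91.4 CPM, with a gap of 0.733 of the range. The causes were not tested.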

How the results depend on the processing

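Over all members and the alternatives fitted with both prefixes, 589 of 640 log2 fold changes kept their direction and their side of the threshold, 40 changed sign, 9 lost a call and 2 gained one, Hilpda in both. In 1 of the sign changes the value was also called, Bnip3 with copies added (0.56, edgeR adjusted p = 0.00468). Pdk1 kept its direction in every alternative. Its call was lost with the macrophage covariate, which leaves 0 higher and 6 lower calls over all genes, and within prefix 678 (edgeR adjusted p = 0.255) and prefix 679 (0.365). Pfkfb3 kept its direction in every alternative. The sign changes were all in members not called over all 10 libraries. Under the macrophage covariate, Slc2a3 -0.057, Aldoa -0.003, Pkm -0.020, Egln3 -0.20, Ankrd37 -0.028, Ero1l -0.058, P4ha1 -0.060, Pfkfb4 0.16. Under limma-voom with quality weights, Slc2a3 -0.012, Pfkl -0.043, Aldoa -0.007, Pkm -0.094, Egln3 -0.21, Ankrd37 -0.29, P4ha1 -0.13. Under library size alone, Pkm -0.024. Under a transcript length offset, Pkm -0.011. Under the label prefix as a block, Pkm -0.019. Under near-identical copies added, Pkm -0.002, Bnip3 0.56. Under copies added only where at least 50% of the copy is alike, Pkm -0.002. Leaving out 1 library in turn gave ranges that crossed 0 for Slc2a1 -0.033 to 0.32, Slc2a3 -0.087 to 0.27, Gpi1 -0.32 to 0.016, Pfkl -0.081 to 0.23, Aldoa -0.054 to 0.18, Pgk1 -0.21 to 0.051, Eno1 -0.28 to 0.043, Pkm -0.14 to 0.064, Egln3 -0.34 to 0.23, Bnip3 -0.74 to 0.18, Bnip3l -0.072 to 0.21, Ankrd37 -0.38 to 0.47 and P4ha1 -0.22 to 0.19. The cause was not tested.

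Members called higher numbered 1, and 0 with the label prefix as a block, the macrophage covariate, the melanoma covariate or either prefix alone, 2 with the DESeq2 Wald test (Pfkfb3 and Hilpda) and 2 with copies added (Pfkfb3 and Bnip3). Members called lower numbered 1, and 0 with the macrophage covariate or either prefix alone, where fewer libraries enter. Over all genes, 442 were higher and 737 lower. The melanoma covariate gave 167 and 413, the DESeq2 Wald test 811 and 1082, prefix 678 alone 0 and 0, and prefix 679 alone 71 and 254. Leaving out 1 library gave 0 to 2 members higher, 1 lower each time, 202 to 490 genes higher, 494 to 786 lower and 0 to 1 member transcripts, the 1 being Pdk1-208 without WT 679_5 (log2 fold change -0.72, edgeR adjusted p = 0.0332). The difference in the Pkm M2 share was -0.127 percentage points, 0.501 on deposited TPM and -0.333 to 0.10 with 1 library left out. No paired analysis was possible because no replicate number is shared by the genotypes. With 5 libraries per group, differences of the size of these standard errors could not be detected.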
